A study of Caenorhabditis elegans with 8 samples.

Results

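The fip (fungus-induced protein) and fipr (fip-related) genes of Caenorhabditis elegans encode small peptides of a family known from fungal infection of the skin. They were taken here by name, as every gene whose WormBase symbol is fip- or fipr- followed by a number, which gave 36 genes (7 fip and 29 fipr) of 46748 in the count tables. The family was chosen by the level of fipr-17 in these 8 libraries, which was much higher in 3A than in WT embryos. The level of fipr-17 is therefore given below as a description, without a test, and the question put to the data was whether the other 35 members and the genes around fipr-17 differed in the same direction.

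RNA was sequenced from whole late embryos of 2 strains, with 4 libraries each. In the 3A strain, lin-52(bn151), the LIN-52 protein carries the 3 substitutions L42A, C44A and E46A, and the design compares it with lin-52(bn139), called WT here, in which LIN-52 is unaltered. Both strains carry GFP and 3xFLAG on LIN-52 itself, so the WT animals are tagged too. LIN-52 is a subunit of MuvB, which joins the pocket protein LIN-35 in the DREAM repressor complex, and the substitutions were made to separate LIN-35 from MuvB. Worms were grown in liquid culture for 72 h on bacteria with no infection among the labelled treatments, and embryos were held for up to 3.5 h (20 °C) after bleaching, so the exact stage could vary between libraries.

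The best-known worm peptides of this kind are made in the epidermis and released against fungi that pierce the cuticle. In adults and larvae the related nlp and cnc peptide genes are switched on through the receptor DCAR-1, the G protein GPA-12 and a p38 MAP kinase cascade of TIR-1, NSY-1, SEK-1 and PMK-1 that acts on the STAT-like factor STA-2. Some cnc genes also respond to the TGF-beta ligand DBL-1. The roles of most single fip and fipr genes have not been separated, so each is described here by its level, length and place only.

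Depth was 17346339 to 29101114 gene-assigned read pairs in the 3A libraries and 14667743 to 68040557 in the WT libraries. Ribosomal RNA genes took 1.75% to 40.7% of these in 3A and 0.720% to 3.24% in WT, highest in 3A replicates 4 and 1. The 12 epidermal markers listed summed to between 3865 and 11910 CPM (counts relative to library totals after TMM scaling) in 3A. In WT they summed to between 2106 and 19480 CPM. Most of this came from sqt-3, which averaged 5606 CPM in 3A and 6525 CPM in WT, followed by dpy-7, at 751 and 832 CPM. Some of the others were low: che-14 averaged 0.601 CPM in 3A and 1.16 CPM in WT, and bli-1 averaged 0.0555 and 0.0307 CPM. Of the 26 sperm genes listed and found in the tables, the sum was at most 3.66 CPM in 3A and 2.74 CPM in WT. The sum of the 6 yolk protein genes, which mark adult intestine, ranged from 1.45 to 102.3 CPM in 3A and from 2.73 to 76.6 CPM in WT. None of the marker genes tested for epidermis, muscle, embryonic intestine, yolk or sperm was called between the strains by edgeR or DESeq2. Of all 12664 genes tested, edgeR called 47 and DESeq2 169. In edgeR, 1 each of the epidermal, embryonic intestine and sperm genes had an unadjusted p-value under 0.05, where 9.75% of all genes tested did.

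The 36 members lie on 5 chromosomes, with 15 on V, 8 on III, 5 each on I and IV, and 3 on X. Joined wherever the gap between them was at most 20 kb, they formed 10 groups of 2 or more genes, and 9 members stood alone. The largest group, on chromosome V, held fipr-4, fipr-5, fipr-6, fipr-7, fipr-8 and fipr-9. fipr-17 (WBGene00012965, WBcel235 chromosome III, 11007459 to 11007602, minus strand) stood alone, and the member nearest to it by position, fip-1, is 2367365 bp away. Most members (25) have 2 exons, while 9 have a single exon, and their exons sum to between 129 and 776 bp.

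fipr-17 is 1 of 8 very short single-exon members, of 42 to 50 codons, a form it shares with fip-3, fipr-14, fipr-15, fipr-16, fipr-18, fipr-19 and fipr-20. Its 144 bp encode 47 residues and are shorter than the 150-bp reads, so a read from it extends past the annotated gene. Reads aligned to several places were left out of the gene counts by the authors' counting, and they made up 2.61% to 14.4% of all counted read pairs in 3A and 1.82% to 3.97% in WT. Members with near-identical copies would lose reads this way, and the likeness of their sequences was not examined here, so low values in the family are uncertain.

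Detection was uneven. Of the 36 members, 6 (fip-7, fipr-12, fipr-14, fipr-15, fipr-25 and fipr-27) had 0 counts in all 8 libraries, where 3 counts, the limit that a count of 0 allows, correspond to 0.103 to 0.173 CPM in 3A and 0.0441 to 0.205 CPM in WT before TMM scaling. That limit covers counting error only. A further 8 members had between 1 and 10 counts over all libraries together. Between 16 and 25 members had at least 1 count in a 3A library and between 19 and 28 in a WT library, with the deepest library, WT replicate 3, showing the most. Of the 6 members without a count, 4 (fip-7, fipr-14, fipr-15 and fipr-27) are among the 5 on chromosome IV.

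**Figure D1:**
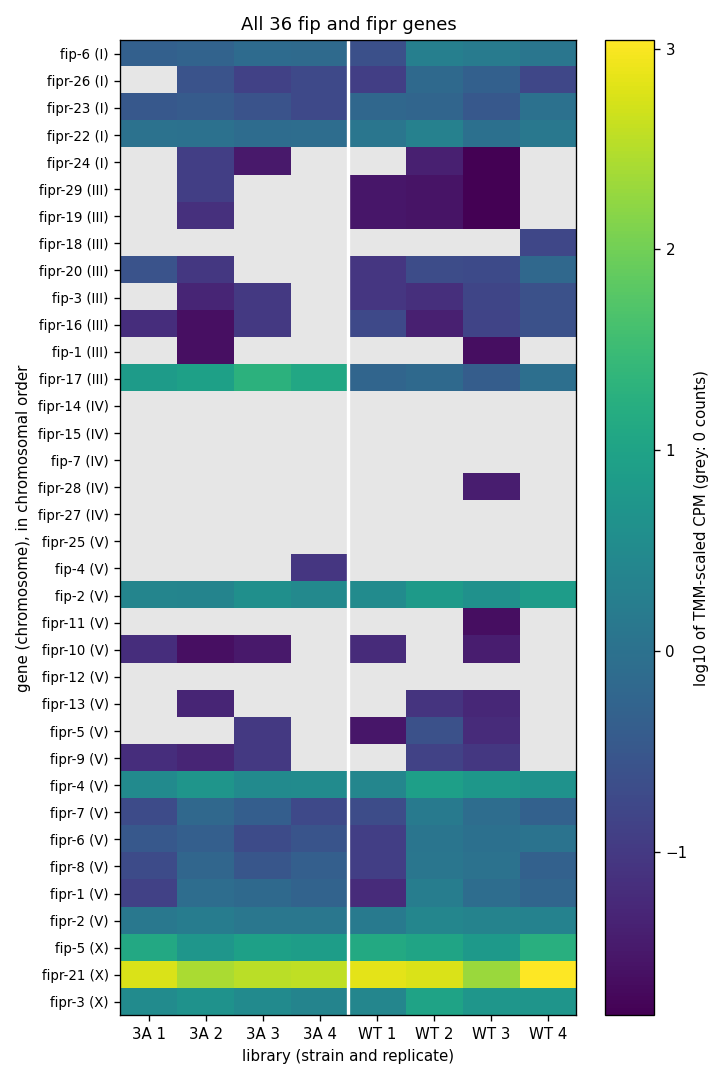
Level of each of the 36 fip and fipr genes (rows, in chromosomal order) in each of the 8 libraries (columns, 3A left and WT right), as log10 of TMM-scaled CPM with 0 counts in grey. fipr-21 is the brightest row in every library, and fipr-17 is visibly brighter in every 3A library than in any WT library.

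Nearly all fip and fipr RNA in these embryos came from fipr-21 on the X chromosome (WBGene00009621; X, 10304529 to 10304867, plus strand). It made up 94.7%, 89.0%, 88.8% and 91.7% of the family's summed CPM in 3A replicates 1 to 4, against 96.2%, 91.8%, 86.3% and 96.0% in WT replicates 1 to 4. The summed level of the family was 628, 305, 397 and 405 CPM in 3A replicates 1 to 4, against 726, 625, 239.8 and 1147 CPM in WT replicates 1 to 4. These ranges overlap, with WT replicate 3 below every 3A library, and the means were 434 ± 137 CPM in 3A and 684 ± 373 CPM in WT (SD, n = 4 each). The overlap depends on the scaling: by library size alone the sum was 255 to 439 CPM in 3A and 461 to 942 CPM in WT, with every 3A library below every WT library. Library size includes ribosomal RNA, at 1.75% to 40.7% in 3A and 0.720% to 3.24% in WT. With TMM and no ribosomal RNA genes the sums overlapped, at 346 to 694 CPM in 3A and 274 to 1266 CPM in WT. By library size alone, genes in general also moved down, from a median of -0.08 to -0.40. How many of them separated the strains under that scaling was not examined. In bulk embryos, fewer cells of a type and less RNA per cell cannot be told apart. Without fipr-21 and fipr-17, the other 34 members summed to only 24.3 ± 2.28 CPM in 3A and 38.6 ± 10.8 CPM in WT (SD, n = 4 each).

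The level of fipr-17, by which the family was chosen, was 7.07, 8.70, 20.0 and 12.6 CPM in 3A replicates 1 to 4, against 0.599, 0.691, 0.413 and 0.913 CPM in WT replicates 1 to 4. The groups did not overlap, as for 3.80% of all genes tested with the higher values in 3A, and the lowest 3A library was 7.74 times the highest WT library. These values rest on 107, 364, 603 and 138 read pairs in 3A and on 20, 50, 54 and 11 read pairs in WT. The means were 12.1 ± 5.78 CPM in 3A and 0.654 ± 0.208 CPM in WT (SD, n = 4 each), and the fitted log2 fold change was 4.28 (SE 0.42), the fifth highest of 12664 genes tested.

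Set against the rest of the family, fipr-17 supplied 1.13%, 2.85%, 5.05% and 3.12% of the summed CPM in 3A replicates 1 to 4, against 0.0825%, 0.111%, 0.172% and 0.0797% in WT replicates 1 to 4. Per kilobase of exon, it was second among the 14 members tested in 3A, at 84.1 ± 40.1 CPM per kb, and sixth in WT, at 4.54 ± 1.44 CPM per kb (SD, n = 4 each). Above it in 3A stood only fipr-21, at 1173 ± 408 CPM per kb, and below it fip-5, at 29.3 ± 10.5 CPM per kb. On this measure the libraries of these neighbours in the order did not overlap. In CPM, without the division by length, fipr-17 and fip-5 did overlap in 3A, at 7.07 to 20.0 and 5.55 to 13.02 CPM. The 3A libraries of fipr-21 stayed above those of fipr-17 in CPM too. In WT, per kilobase, fipr-17 was next to fipr-2, at 4.53 ± 1.07 CPM per kb, from which it did not differ beyond their spread. The annotated 144 bp of fipr-17 are shorter than the 150-bp reads, so its place per kilobase is uncertain in both strains.

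Replicates 3 and 4, the 3A libraries with the most fipr-17, also had the most yolk protein RNA of that strain, at 68.4 and 102.3 CPM for the 6 genes together, against 1.45 and 4.76 CPM in 3A replicates 1 and 2. In WT the same sum was 2.73, 6.28, 12.3 and 76.6 CPM in replicates 1 to 4. WT replicate 4 held more yolk protein RNA than 3 of the 4 3A libraries, with fipr-17 at 0.913 CPM. It was also the WT library with the most fipr-17, against 0.599, 0.691 and 0.413 CPM in WT replicates 1 to 3. The summed sperm genes were 2.11, 1.24, 3.66 and 3.39 CPM in 3A replicates 1 to 4, against 1.62, 1.19, 1.10 and 2.74 CPM in WT replicates 1 to 4. The part of adult tissue in the fipr-17 level was not tested. Without 3A replicates 1 and 4, the libraries richest in ribosomal RNA, the log2 fold change of fipr-17 was 4.53.

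**Figure D2:**
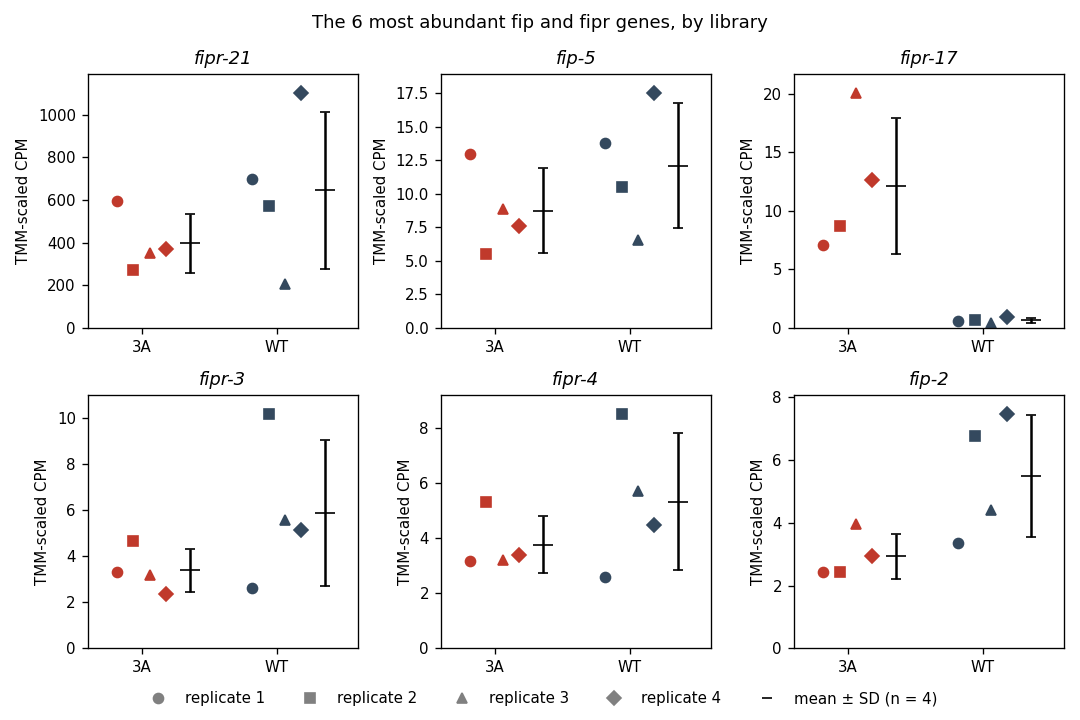
TMM-scaled CPM of the 6 fip and fipr genes with the highest mean level, in the 4 3A libraries (left) and the 4 WT libraries (right) of each panel, with one marker shape per replicate number and the mean ± SD (n = 4) beside them. Only in the fipr-17 panel do all 3A libraries lie above all WT libraries; in the other 5 panels the strains overlap.

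No other member was called as higher in 3A. Of the 36 members, 14 had enough counts for the fit, and the 13 besides fipr-17 were tested. Once p-values from edgeR's quasi-likelihood fit were adjusted over all genes (threshold 0.05), 0 of the 13 were called, in a comparison that called 0.371% of the 12664 genes. All 13 had a log2 fold change below 0, from -1.36 to -0.46 with a median of -0.79, where 57.2% of all genes tested lay below 0 and their median was -0.08. Adjusted p-values by edgeR ran from 0.434 to 0.852. DESeq2, which called 169 of the 12664 genes, called none of the 13 either. In edgeR, 2 of the 13 had an unadjusted p-value under 0.05, against 9.75% of all genes. In 0 of the 13 did every 3A library lie below every WT library, a pattern seen in 2.36% of all genes tested. Passing the filter depends on the level itself, so these 13 do not stand for the 22 members left out.

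**Figure D3:**
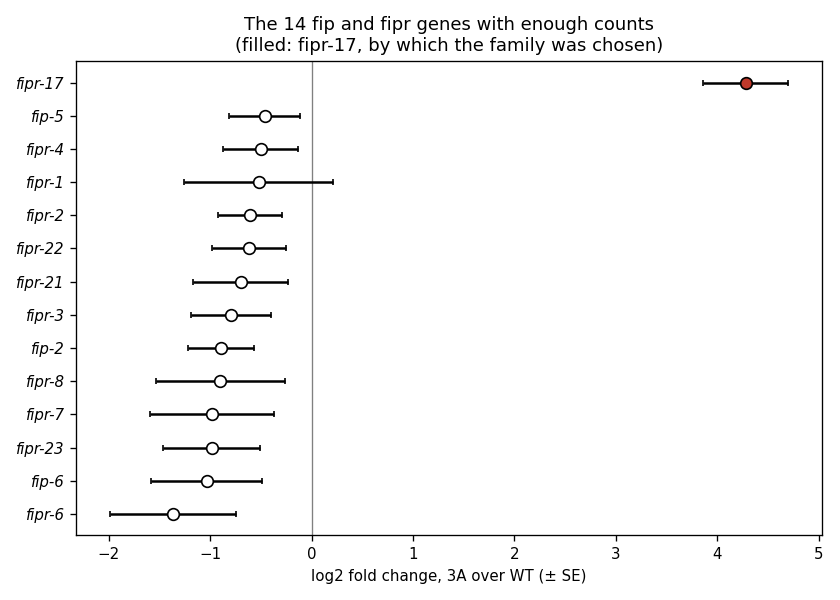
Log2 fold change of 3A over WT (x axis, ± SE) for the 14 fip and fipr genes with enough counts, ordered from highest to lowest. fipr-17, by which the family was chosen, is filled and stands at 4.28 as a description; the 13 others (open) lie between -1.36 and -0.46.

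fipr-21, the dominant member, was at 595, 271, 353 and 371 CPM in 3A replicates 1 to 4, against 699, 573, 207 and 1101 CPM in WT replicates 1 to 4. WT libraries lie on both sides of the 3A libraries. Its means were 398 ± 138 CPM in 3A and 645 ± 369 CPM in WT (SD, n = 4 each) with a fitted log2 fold change of -0.70 (SE 0.47; adjusted p by edgeR = 0.659). Its neighbour fip-5, 1385 bp away on the same strand, had 13.02, 5.55, 8.84 and 7.60 CPM in 3A replicates 1 to 4, against 13.8, 10.5, 6.60 and 17.5 CPM in WT replicates 1 to 4. As for fipr-21, WT replicate 4 was highest and WT replicate 3 lowest of the WT libraries, and the log2 fold change was -0.46 (SE 0.35; adjusted p by edgeR = 0.703).

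fip-2 on chromosome V (9067978 to 9068390, plus strand) had the lowest unadjusted p-value of the 13. Its level was 2.45, 2.41, 3.96 and 2.93 CPM in 3A replicates 1 to 4, against 3.36, 6.75, 4.40 and 7.47 CPM in WT replicates 1 to 4. Only 3A replicate 3 reached into the WT range. The log2 fold change was -0.89 (SE 0.33; unadjusted p = 0.0191, adjusted p by edgeR = 0.434).

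fipr-3 on the X chromosome had 3.30, 4.66, 3.19 and 2.38 CPM in 3A replicates 1 to 4, against 2.61, 10.2, 5.57 and 5.15 CPM in WT replicates 1 to 4. fipr-4, the most abundant gene of the chromosome V group of 6, had 3.17, 5.31, 3.19 and 3.39 CPM in 3A replicates 1 to 4, against 2.58, 8.52, 5.73 and 4.48 CPM in WT replicates 1 to 4. In both genes replicate 2 was the highest library of each strain, and WT replicate 1, the lowest WT library, lay within or below the 3A range, so the strains overlapped. The log2 fold changes were -0.79 (SE 0.39; adjusted p by edgeR = 0.561) for fipr-3 and -0.50 (SE 0.37; adjusted p by edgeR = 0.689) for fipr-4.

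The 8 remaining tested members averaged between 0.290 and 1.40 CPM in 3A and between 0.636 and 2.14 CPM in WT. They were fip-6, fipr-22 and fipr-23 on chromosome I and fipr-1, fipr-2, fipr-6, fipr-7 and fipr-8 on chromosome V. fipr-6 had the lowest log2 fold change of the family, -1.36 (SE 0.62; unadjusted p = 0.0495, adjusted p by edgeR = 0.511). Library differences within a strain were common to many members: of the 13 tested besides fipr-17, 9 were lowest in WT replicate 1 and 9 highest in WT replicate 2 among the WT libraries. In 3A, 8 of the 13 were highest in replicate 2. fip-2, fipr-1, fipr-2 and fipr-3 each overlap a gene on the opposite strand. Strand-specific counting, which was assumed and not checked here, would keep the overlapping genes apart.

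The other 7 short single-exon members, grouped with fipr-17 by length and exon number only, had few counts in both strains. Reads aligned to several places were left out and the likeness of these genes was not examined, so the low counts are uncertain. Of the 7, fipr-14 and fipr-15 had 0 counts throughout, and none of the 7 had enough counts to be tested. Together the 7 had 21 counts over all 3A libraries and 122 counts over all WT libraries, of 96980189 and 183439212 gene-assigned read pairs, while fipr-17 had 1212 counts in 3A and 135 in WT. fipr-20 had 4, 4, 0 and 0 counts in 3A replicates 1 to 4, against 3, 15, 25 and 8 counts in WT replicates 1 to 4. fip-3 and fipr-16, neighbours on chromosome III, each had 5 counts in all of 3A and 32 in all of WT. Scaled to those totals, the 7 together stood at 0.217 CPM in 3A and 0.665 CPM in WT, without TMM factors, a difference that was not tested.

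The genes around fipr-17 were then examined. Within 20 kb of it the annotation places 13 other genes, 8 of them protein-coding, and 7 had enough counts to be tested. None of the 7 passed the threshold, where 0.355% of all genes were called as higher in 3A, and their log2 fold changes ran from -0.49 to 0.51 with a median of 0.14. Unadjusted, 0 of the 7 had a p-value under 0.05 in the edgeR fit, against 9.75% of all genes. With DESeq2, 0 of the 7 were called, and 169 of all 12664 genes tested.

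The nearest gene, Y48A6B.3 (WBGene00012964), encodes a homologue of the yeast small nucleolar RNA-binding protein NHP2. It lies on the plus strand at 11008222 to 11008929, so that its 5′ end faces that of fipr-17 across 619 bp. Its level was 968, 493, 697 and 743 CPM in 3A replicates 1 to 4, against 1147, 447, 288 and 748 CPM in WT replicates 1 to 4. The 3A libraries all fell within the WT range, and the log2 fold change was 0.14 (SE 0.44; adjusted p by edgeR = 0.942). A difference between the strains was not detectable in this abundant gene.

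On the other side the nearest tested gene was dmsr-5, a receptor gene of the dromyosuppressin receptor-related family, 12202 bp away. It had 0.529, 0.143, 0.366 and 0.458 CPM in 3A replicates 1 to 4, against 0.420, 0.318, 0.260 and 0.415 CPM in WT replicates 1 to 4. The 3A values lie on both sides of the WT values, with a log2 fold change of 0.04 (SE 0.51; adjusted p by edgeR = 0.988). With so few reads from dmsr-5, its SE of 0.51 is wider than the difference found.

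The other genes tested in the window were exos-1, a subunit of the RNA exosome, the potassium channel gene kvs-4, the collagen gene col-94, Y48A6B.7 and Y48A6B.8. exos-1 followed Y48A6B.3 on the same strand and averaged 112 ± 27.7 CPM in 3A and 90.6 ± 37.1 CPM in WT (SD, n = 4 each) with a fitted log2 fold change of 0.30 (SE 0.35; adjusted p by edgeR = 0.818). Y48A6B.8 had the highest value, 0.51 (SE 0.35; adjusted p by edgeR = 0.667), and col-94 the lowest, -0.49 (SE 0.67; adjusted p by edgeR = 0.847). The value of col-94 hung on single libraries: it was -1.22 without 3A replicate 1 and 0.25 without WT replicate 1, and not called in either case. The plot of fold change by distance shows the 7 genes tested between -0.49 and 0.51. Of the 7, 5 lay above 0 and 2 below, where 57.2% of all genes tested lay below 0. Whichever 1 library was left out, exos-1, kvs-4 and Y48A6B.8 stayed above 0 and Y48A6B.7 below 0. With library size alone, 3 of the 7 lay above 0.

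**Figure D4:**
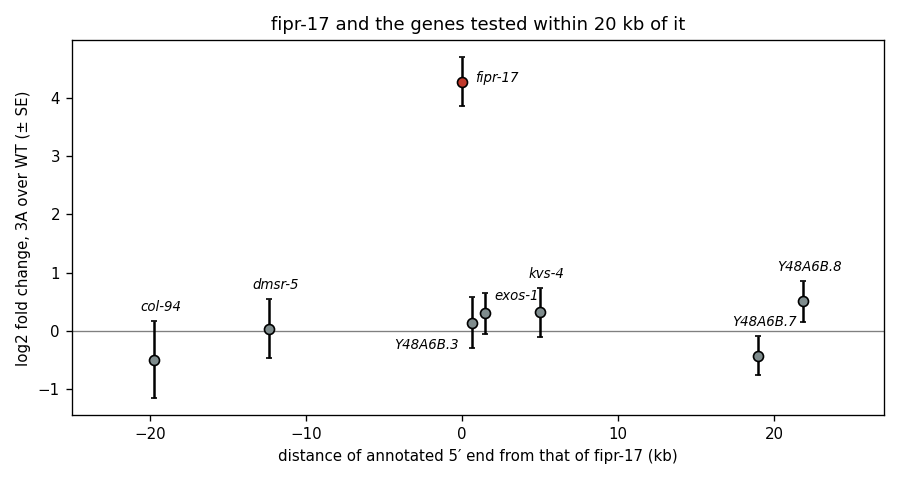
Log2 fold change of 3A over WT (y axis, ± SE) for fipr-17 (red) and the 7 genes tested within 20 kb of it, by the distance of their annotated 5′ ends from that of fipr-17 (x axis, kb). The neighbours lie between -0.49 and 0.51 and fipr-17 at 4.28.

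The same question was put for the whole family, with the nearest protein-coding gene on each side of every member that is no member and does not overlap it. The overlapping genes twk-7, T27E4.5, smk-1 and F23D12.11 were left out in this way. F23H12.5, gcy-13, mec-9 and egl-47 each overlap a member but entered as the nearest gene beside another. Of these, F23H12.5 and mec-9 had enough counts to be tested. The choice gave 51 genes, of which 28 were tested, among them Y48A6B.3 and dmsr-5. The epidermal marker sqt-3 and the peptide gene cnc-8 are also among the 28, so the lists share genes. None of the 28 was called by edgeR or DESeq2, which called 47 and 169 of all 12664 genes tested. None had an unadjusted p-value under 0.05 in the edgeR fit, against 9.75% of all genes. The median log2 fold change of the 28 was -0.25, and 19 of them lay below 0, where 57.2% of all genes tested did. The smallest unadjusted p-values belonged to grd-5, a hedgehog-related gene (log2 fold change -0.55, SE 0.25; adjusted p by edgeR = 0.513), F13E9.12 (-1.65, SE 0.81; adjusted p by edgeR = 0.548) and sdz-13 (0.99, SE 0.50; adjusted p by edgeR = 0.564).

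Other antimicrobial peptide genes of the worm were read beside the family, with 28 genes of the abf, cnc and nlp families listed. The abf genes encode defensin-like peptides, and the cnc and nlp genes of the list encode glycine-rich peptides of the epidermis or relatives of them. Of the 17 tested, 16 had a log2 fold change below 0, with a median of -0.55 and a range from -1.14 to 0.02, against 57.2% of all genes below 0 and a median of -0.08. Without WT replicate 4, 12 of the 17 lay below 0, with a median of -0.20. None of the 17 was called by edgeR or DESeq2, which called 47 and 169 of all 12664 genes tested. In edgeR, 2 had an unadjusted p-value under 0.05, against 9.75% of all genes. Unlike most fip and fipr genes, several were abundant: nlp-24, nlp-31 and nlp-33 averaged 278 ± 121, 302 ± 86.7 and 230.3 ± 70.0 CPM in 3A, against 407 ± 189, 297 ± 133 and 352 ± 161 CPM in WT (SD, n = 4 each).

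The 3 smallest p-values of that list belonged to nlp-29, nlp-28 and cnc-8. nlp-29, the gene most used to report epidermal infection, had 63.4, 35.1, 45.6 and 53.2 CPM in 3A replicates 1 to 4, against 93.3, 106.8, 47.2 and 141.3 CPM in WT replicates 1 to 4. Only WT replicate 3 reached down into the 3A range. Its log2 fold change was -0.98 (SE 0.34; unadjusted p = 0.0150, adjusted p by edgeR = 0.408). nlp-28, of the same gene cluster, had -1.14 (SE 0.44; adjusted p by edgeR = 0.459), and cnc-8 had -0.59 (SE 0.31; adjusted p by edgeR = 0.582).

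All 21 listed genes of the signalling route to these peptides were tested. None of the 21 was called by edgeR or DESeq2, which called 47 and 169 of all 12664 genes tested. In edgeR, 1 had an unadjusted p-value under 0.05, against 9.75% of all genes. Their median log2 fold change was -0.26, with a range from -0.72 to 0.74 and 18 below 0, where 57.2% of all genes were. Without WT replicate 1, 10 of the 21 lay below 0 and the median was 0.03. The 1 gene with an unadjusted p-value under 0.05 in edgeR was elt-3, a GATA factor of the epidermis. It is in the epidermal marker list too and is the 1 epidermal gene counted there. Its level was 7.20, 10.7, 7.05 and 7.42 CPM in 3A replicates 1 to 4, against 18.7, 14.02, 11.03 and 9.05 CPM in WT replicates 1 to 4. In 3A, 3 of the 4 libraries lay below all WT libraries, and the log2 fold change was -0.70 (SE 0.29; unadjusted p = 0.0315, adjusted p by edgeR = 0.481). The receptor gene dcar-1 had -0.59 (SE 0.27; adjusted p by edgeR = 0.513) and the kinase gene nsy-1 had 0.74 (SE 0.36; adjusted p by edgeR = 0.546).

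**Figure D5:**
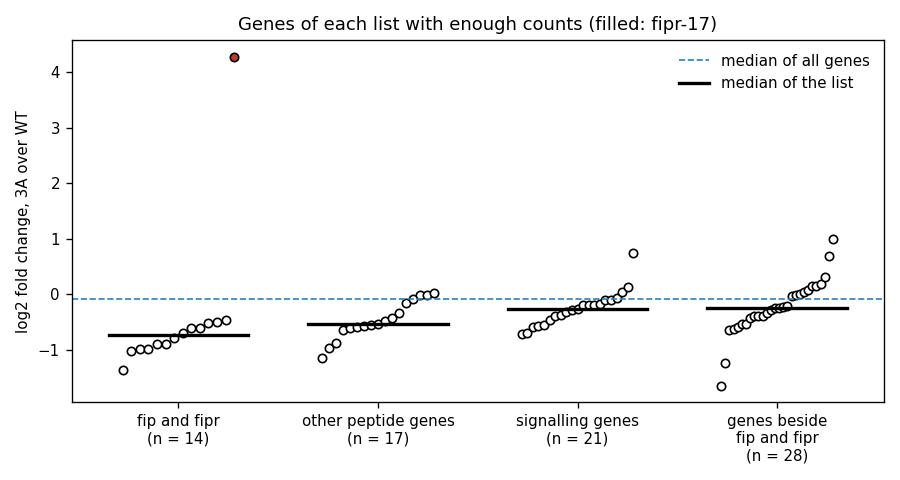
Log2 fold change of 3A over WT (y axis) for the genes with enough counts of the fip and fipr family, of the other peptide families, of the signalling route, and of the genes beside fip and fipr members, one point per gene with the median of each list as a bar and the median of all genes as a dashed line. The filled point at 4.28 is fipr-17, by which the family was chosen, and the medians of the 4 lists are -0.74, -0.55, -0.26 and -0.25.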

How the data were processed

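For each library the deposited file holds unnormalized counts of read pairs for 46748 WormBase identifiers, and 5 closing counters that were left out of all totals. The submitters' processing notes name fastp, STAR, HTSeq and DESeq2 and the build WBcel235, without versions; stranded counting is taken from the table names, and the annotation release is not given in the sources used here. Symbols came from a supplied table of identifiers, and positions and exon lengths from the Ensembl release 115 annotation of WBcel235.

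The fit used edgeR 4.0.16 under R 4.3.3: filterByExpr (minimum count 10), TMM scaling, the quasi-likelihood F-test of 3A against WT across all genes, and Benjamini-Hochberg adjustment over the 12664 genes tested, with calls at an adjusted p-value under 0.05. The SE is the size of the log2 fold change divided by the square root of F. Levels are TMM-scaled CPM computed from the deposited counts. Alternatives were RLE scaling, library size alone, no filter, DESeq2 1.42.0, a replicate block, no ribosomal RNA genes, and each library left out. The 4 libraries of each strain count as replicates, as the series' design text calls them; no 2 of a strain agreed within sampling noise (lowest chi-square per degree of freedom 55.6), which does not itself show separate cultures.

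Per-library values are given for fipr-17, called members, the 6 members of highest mean CPM and the nearest tested gene on each side of fipr-17, and the 3 smallest p-values of each list are named. fipr-20, fip-3, fipr-16 and the 3 most abundant nlp genes were added to these once their values were known. The per-library values of nlp-29 and elt-3, and of the yolk and sperm sums, were not among those planned either. The members and lists were chosen with earlier results of these data known.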

Additional observations from a re-analysis of the deposited data

Results flagged for a closer look

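In 6 of 64 groups of 4 libraries examined, 1 library stood far from the other 3, by a gap above Dixon's 95% critical value. Chance flags about 1 in 20 such groups. In 3A replicate 2, fipr-2 was at 1.70 CPM with the next library at 1.32 CPM, and fipr-4 at 5.31 CPM with the next at 3.39 CPM. The same library was high for elt-3, at 10.7 CPM with the next at 7.42 CPM, and low for exos-1, at 70.5 CPM with the next at 121 CPM. In 3A replicate 1, col-94 was at 532 CPM with the next library at 167 CPM. In 3A replicate 4, nsy-1 was at 17.04 CPM with the next library at 8.08 CPM. fipr-17 was not among the genes with such a library in either strain.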

How the results depend on the processing

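The log2 fold change of fipr-17 ran from 3.90 to 4.53 over the settings tried, given as a description. No other member, and no gene of its 20-kb window, of the genes beside the family, of the other peptide genes or of the signalling genes was called under any of them. The 13 other tested members lay below 0 under every scaling; the 1 sign change was fipr-1, at 0.20 without WT replicate 2. Scaling by library size alone moved the median of all genes by -0.32, and that of the 13 members to -1.13, or -0.73 relative to all genes. The count of all genes called, 47, moved to 10 with library size alone, 71 with no filter on low counts, 169 with DESeq2, 175 with the replicate block and 17 without 3A replicates 1 and 4, a setting added after seeing the data. Leaving out 1 library gave 18 to 196 genes, with the lowest count without 3A replicate 3 or WT replicate 2 and the highest without WT replicate 1; the cause was not tested. The mean summed family level was 386 CPM in 3A and 689 CPM in WT when scaled by library size alone. There the strains did not overlap (at most 439 CPM in 3A, at least 461 CPM in WT). Without ribosomal RNA genes, and with TMM kept, they overlapped. Library size without ribosomal RNA genes was not among the settings, so the part of ribosomal RNA in the separation was not tested. Within 20 kb of fipr-17, leaving out 1 library moved Y48A6B.3 between -0.11 and 0.56, dmsr-5 between -0.19 and 0.38 and col-94 between -1.22 and 0.25, so these have no settled direction; Y48A6B.3 and dmsr-5 also lay below 0 with library size alone.

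Libraries of the same replicate number deviated together with correlations of 0.57, 0.60, 0.18 and 0.0085 for replicates 1 to 4, so the numbers were not taken to pair the samples; of the 3A libraries only replicate 1 correlated best with its own number. With the replicate block fipr-17 had a log2 fold change of 4.19, and no other member was called. The planned comparison of member sequences and the search of promoters for motifs were not run, since sequences were not used here. Depth limits the 22 members that were not tested, whose means were at most 0.145 CPM in 3A and 0.364 CPM in WT.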
